A study of Caenorhabditis elegans with 16 samples.

Results

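The chromatin modifier genes of Caenorhabditis elegans were taken as every locus whose name begins with set, jmj, hda, mes, met, hpl, swsn, cbp, spr or sir-2 followed by a number, and 67 of the 42048 loci in the deposited tables met this rule. No name beginning with jmj did, because the worm's JmjC demethylases carry jmjd names; they were counted in a separate list of other chromatin genes. Of the 67 members, 21 were set genes without a role assigned here, 8 were deacetylases, 7 belonged to the SWI/SNF remodelling complex and 6 to H3K9 methylation and heterochromatin. H3K4 methylation and the spr genes had 5 members each, sirtuins 4, H3K27 and H3K36 methylation 3 each, and H4K20 methylation and acetyltransferases 2 each. The remaining member, mes-1, is caught by its name only: it encodes a membrane protein related to receptor tyrosine kinases that acts in germline precursors of the embryo.

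All 4 groups of 4 libraries were whole worms at adult day 1, fed bacteria that carry the L4440 vector. The first group was strain TU3401 fed what the labels name Luc RNAi. The other 3 groups were strain SHU47, a glp-1 mutant in the TU3401 background per the labels, and were fed Luc RNAi (the glp-1 control) or RNAi of mml-1 or of mxl-2, the last 2 called here the mml-1-labelled and mxl-2-labelled libraries. TU3401 is known in the field as a strain in which feeding RNAi acts mainly in neurons, because the double-stranded RNA channel SID-1 is supplied there alone, and all 4 groups share this background. The labels do not give the glp-1 allele, nor whether the libraries of a group are from separate cultures. Every p-value rests on the differences between libraries alone, some of which may be technical. The study asked what neuronal loss of MML-1 and MXL-2, a pair of transcription factors related to Mondo and Mlx that act together, does in germline-less worms.

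Chromatin modifiers are enzymes and remodellers that set how tightly DNA is wrapped around histones. Methyltransferases with a SET domain place methyl groups on histone lysines, CBP acetylates and HDA and SIR-2 proteins deacetylate them, SPR-5 removes methyl groups from H3K4, HPL proteins bind methylated H3K9, and SWI/SNF uses ATP to move nucleosomes. In the worm many of them are known for roles in the germline: the MES proteins were named for maternal-effect sterility, MES-4 carries the memory of germline genes on H3K36, and MES-2, MES-3 and MES-6 form the worm's Polycomb repressive complex, which methylates H3K27. GLP-1 is the Notch receptor that keeps germline stem cells dividing, and worms without its activity make almost no germ cells.

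Library totals worked out from the deposited RPKM (reads per gene, corrected for the gene's length and for the library's total) ran from 18818680 to 27228111 reads, at which 1 read of a 1 kb gene is worth 0.0367 to 0.0531 RPKM. Of the 67 members, 61 were above 0 in all 16 libraries. The glp-1 transcript itself fell from 71.1 ± 3.02 RPKM (SD, n = 4) in TU3401 to 3.29 ± 0.550 in the glp-1 control. The targeted genes were not lower in their own libraries: mml-1 had 23.8, 91.5, 28.9 and 22.9 RPKM in the mml-1-labelled libraries against 11.2 to 35.2 in the control. For mxl-2 the values were 29.3, 90.7, 733 and 47.4 RPKM in the mxl-2-labelled libraries against 21 to 30.3, and 308 RPKM in replicate 3 of the mml-1-labelled ones. The files do not separate worm transcripts from any RNA of the same sequence taken in with the RNAi food, so these values are not read as transcript levels. RNA of whole worms does not check a knockdown that acts in neurons, so directions given below for these libraries rest on the labels.

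Without a germline, the chromatin modifiers were lower almost as a class. Their summed level was 2749 ± 79.9 RPKM in TU3401 and 545 ± 45.2 in the glp-1 control (mean ± SD, n = 4 each). Of 64 members with a mean of at least 1 RPKM over the 8 libraries, 56 were lower in the glp-1 control, 6 were higher (hda-5, sir-2.2, cbp-2, hda-11, set-30 and set-6) and 2 were not called (hda-4 and set-18; limma on log2(RPKM + 1), Benjamini-Hochberg adjusted p under 0.05 over all genes tested). Over all 13563 genes tested, 46.1% were lower and 41.5% higher, so a change was common and the lean towards lower was not. The median log2 fold change was -2.49 for the members and -0.06 for all genes tested. Of the members called lower, 52 fell at least 2-fold, as did 5090 of all 13563 genes tested. The log2 fold changes all refer to log2(RPKM + 1), a scale that understates the change of low genes.

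The filter let in 9 members through TU3401 alone, with means under 1 RPKM in the glp-1 control, and these had to differ: mes-4, set-5, set-9, set-13, set-21, set-22, set-24, set-28 and set-32. They are among the 56 counted as lower, and most are among the 52 that fell at least 2-fold. Below, their levels are given as a description, with no test of a single gene. With a mean of at least 1 RPKM asked of both groups, 55 members remained, 47 of them lower and 6 higher, against 43% and 43.6% of 11148 genes. With no filter, all 67 members were tested and 57 were lower and 6 higher, against 30.3% and 27% of 23846 genes. The 2 groups of 4 libraries did not overlap for 62 of the 64 members, where 83.4% of all genes tested did the same. In these bulk samples, fewer cells of a type and less RNA per cell cannot be told apart. RPKM is a share of each library, so for members called higher, more RNA of the gene and less RNA of other genes cannot be told apart either.

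**Figure D1:**
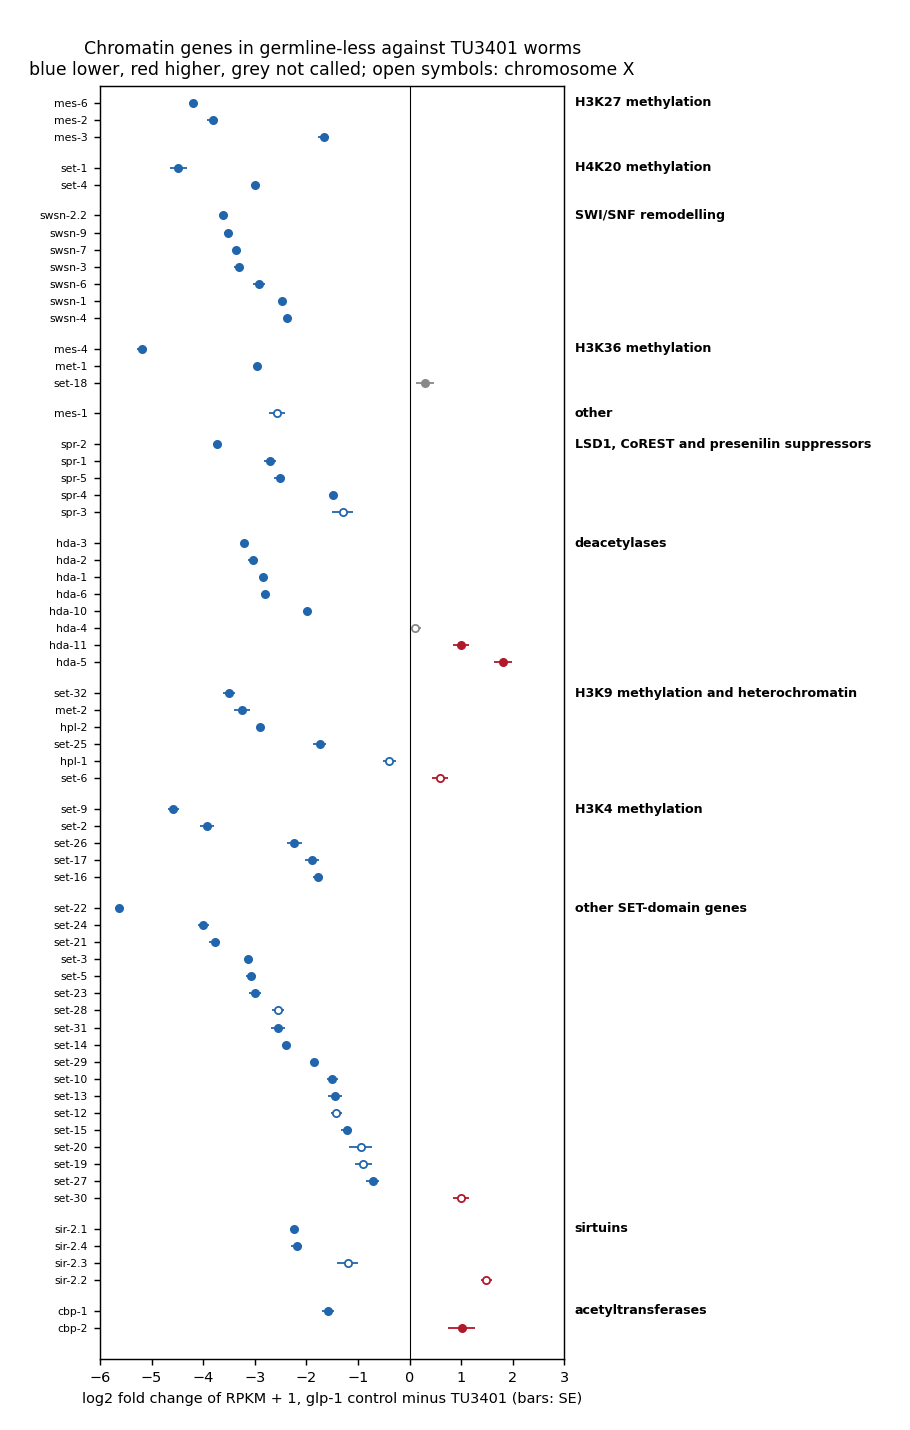
Log2 fold change of RPKM + 1 (glp-1 control minus TU3401, points, with the standard error as bars) for the 64 members tested, grouped by role, with blue for lower, red for higher and grey for not called, and open symbols for genes on chromosome X. Of the 64 points, 56 are blue, which includes the 9 members let in through TU3401 alone, and 6 are red, and all members of the H3K27, H3K4, SWI/SNF and spr groups lie to the left of 0.

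The Polycomb members fell by very different amounts. mes-2, the H3K27 methyltransferase, measured 41.9, 39.3, 37.2 and 35.8 RPKM in the TU3401 libraries and 1.44, 1.57, 2.31 and 1.96 in the glp-1 control. All 4 control libraries lay far under the lowest TU3401 library, and 4.72% of the TU3401 mean remained. The log2 fold change of mes-2 was -3.82 ± 0.11 (SE; adjusted p = 2.02e-09 by limma). mes-6, the complex's WD-repeat subunit, fell alongside it, from 82.6 ± 4.29 to 3.56 ± 0.313 RPKM (log2 fold change -4.2 ± 0.08, adjusted p = 1.06e-10 by limma). The exons of mes-6 overlap those of C09G4.4 on the same strand over 380 bases, so its value is uncertain to that extent. mes-3, a subunit with no recognised enzymatic domain, kept 30.3% of its level, at 14.2, 16.7, 11.6 and 14.2 RPKM against 48.2, 47.3, 47.7 and 43.9. The mes-3 groups did not overlap either (log2 fold change -1.66 ± 0.10, adjusted p = 2.86e-07 by limma).

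The difference inside this complex showed within single libraries. In TU3401 the RPKM of mes-3 was 1.15 to 1.28 times that of mes-2, and in the glp-1 control it was 5.03 to 10.6 times. The mes-6 to mes-2 ratio was 1.83 to 2.43 in TU3401 and 1.39 to 2.42 in the glp-1 control (2-sided exact permutation test, p = 0.686, n = 4 each, mean log2 difference -0.11). These ranges overlap, which does not show that the ratio was unchanged. For mes-3 over mes-2 the exact permutation p was 0.0286, the smallest that 4 against 4 allows. It became 0.0381 after Benjamini-Hochberg adjustment over the 12 ratios computed, whose members were paired after their values had been seen. The ratio p values here and below therefore describe pairs picked with their values known, and the adjustment does not cover that choice.

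The H3K36 writers split by gene. mes-4, which maintains H3K36 methylation on germline genes, had 50.2, 52.6, 47.6 and 47.6 RPKM in TU3401 and 0.313, 0.621, 0.407 and 0.232 in the glp-1 control. It was close to absent in every control library, with 12054 reads over the TU3401 group and 100 over the control group. met-1, the H3K36 methyltransferase of the Set2 type, kept 10.7% of its level. set-18, an H3K36 methyltransferase related to the vertebrate SMYD family, was not called: it measured 6.28, 5.35, 6.63 and 4.84 RPKM in TU3401 and 7.64, 5.44, 6.68 and 10.1 in the glp-1 control. These groups overlap (log2 fold change 0.30 ± 0.17, adjusted p = 0.126 by limma). Leaving out replicate 2 of the glp-1 control brought set-18 to 0.42 with an adjusted p of 0.0342 by limma. Over the alternatives the adjusted p ran from 0.00258 to 0.321, so this was not the only alternative under 0.05. In the authors' deposited table its log2 fold change was 0.54 with a false discovery rate of 0.0332.

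All 5 members placed under H3K4 methylation were lower, against 46.1% of all genes tested, set-9 having passed the filter through TU3401 alone. set-2, the main H3K4 methyltransferase of the COMPASS complex in embryo and germline, measured 32.7, 32.7, 31.3 and 30.2 RPKM in TU3401 and 0.785, 0.891, 1.53 and 1.5 in the glp-1 control. The control libraries were low throughout, but replicates 1 and 2 lay under replicates 3 and 4. The log2 fold change of set-2 was -3.93 ± 0.13 (adjusted p = 4.54e-09 by limma). set-16, the worm's MLL3/4-type methyltransferase, kept 26.2% of its level, and set-17, an H3K4 methyltransferase with a reported role in sperm-forming cells, 26.6%. In TU3401 set-17 was the more abundant per length, at 88.1 ± 3.22 RPKM against 24.9 ± 3.25 for set-16.

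set-9 and set-26 are close relatives with a PHD finger that binds methylated H3K4. In TU3401 they stood at like levels: set-9 had 34.8, 39.9, 32.2 and 30.1 RPKM and set-26 had 37.1, 38.2, 30.5 and 24.1. In the glp-1 control set-9 fell to 0.434, 0.573, 0.486 and 0.384 RPKM, and set-26 to 6.21, 5.38, 5.95 and 6.53. Both were lower in every library, and set-26 over set-9 was 0.801 to 1.07 in TU3401 and 9.40 to 17 in the glp-1 control. This ratio is among the 12 over which the ratio p values were adjusted. Its own p is not given, because set-9 is one of the 9 members let in through TU3401. The log2 fold change of set-26 was -2.23 ± 0.14 (adjusted p = 4.02e-07 by limma). Both genes lie on chromosome IV, set-9 at IV:4307896-4317140 and set-26 at IV:16646791-16655883 (WBcel235, from Ensembl). Their sequences are much alike, so that reads may have been credited to either, and their single values are uncertain to that extent.

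H3K9 methylation and its readers held both falling and rising genes. met-2, the SETDB1-type enzyme for the first methyl groups on H3K9, measured 50.0, 45.1, 44.9 and 43.9 RPKM in TU3401 and 3.53, 6.06, 3.16 and 3.48 in the glp-1 control. Replicate 2 of the control stood above the other 3, yet all were far under TU3401 (log2 fold change -3.25 ± 0.16, adjusted p = 6.24e-08 by limma). set-25, which adds the last methyl group, fell from 12.8, 12.1, 12.6 and 10.8 RPKM to 2.32, 2.56, 3.7 and 3.2. The set-25 groups did not overlap, and 24.4% of the level remained (log2 fold change -1.74 ± 0.13, adjusted p = 9.73e-07 by limma). The exons of set-25 overlap unc-64 on the other strand over 64 bases. set-32, which acts in inherited nuclear RNAi, had 1479 reads over the TU3401 group and 1 over the glp-1 control, a ratio of 1561 (95% counting interval 279.8 to 61717). The filter set the direction of set-32, so the interval covers only counting error in the size of the ratio and is no test. set-6, reported as an H3K9 methyltransferase, was higher: 6.07, 7.18, 7.21 and 8.10 RPKM in the glp-1 control against 5.77, 3.29, 4.87 and 3.98. Its lowest control library lay just above its highest TU3401 library (log2 fold change 0.59 ± 0.15, adjusted p = 0.00556 by limma).

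The 2 heterochromatin proteins of the HP1 type fell by very different amounts. hpl-2, needed for fertility, fell from 93.5, 91.8, 95.5 and 92.4 RPKM to 11.9, 11.4, 12.3 and 11.4. Its libraries were among the tightest of all members, with a log2 fold change of -2.89 ± 0.06 (adjusted p = 1.77e-10 by limma). hpl-1 measured 12.2, 12.2, 14.1 and 13.5 RPKM in TU3401 and 7.36, 11.6, 9.74 and 10.5 in the glp-1 control. The hpl-1 groups did not overlap, but the highest control library lay close under the lowest of TU3401. Its log2 fold change was -0.39 ± 0.13 (adjusted p = 0.0188 by limma), and it turned to 0.31 (adjusted p = 0.0346) when the libraries were forced to 1 common distribution by quantile scaling. Without TU3401 replicate 3 the adjusted p of hpl-1 was 0.0524 (range over the alternatives 0.00820 to 0.0524), and in the authors' deposited table its log2 fold change was -0.26 with a false discovery rate of 0.469. Within libraries, hpl-1 over hpl-2 went from 0.130 to 0.148 in TU3401 to 0.620 to 1.02 in the glp-1 control (exact permutation p = 0.0286, adjusted over the 12 ratios 0.0381). This pair was picked after its values were seen.

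**Figure D2:**
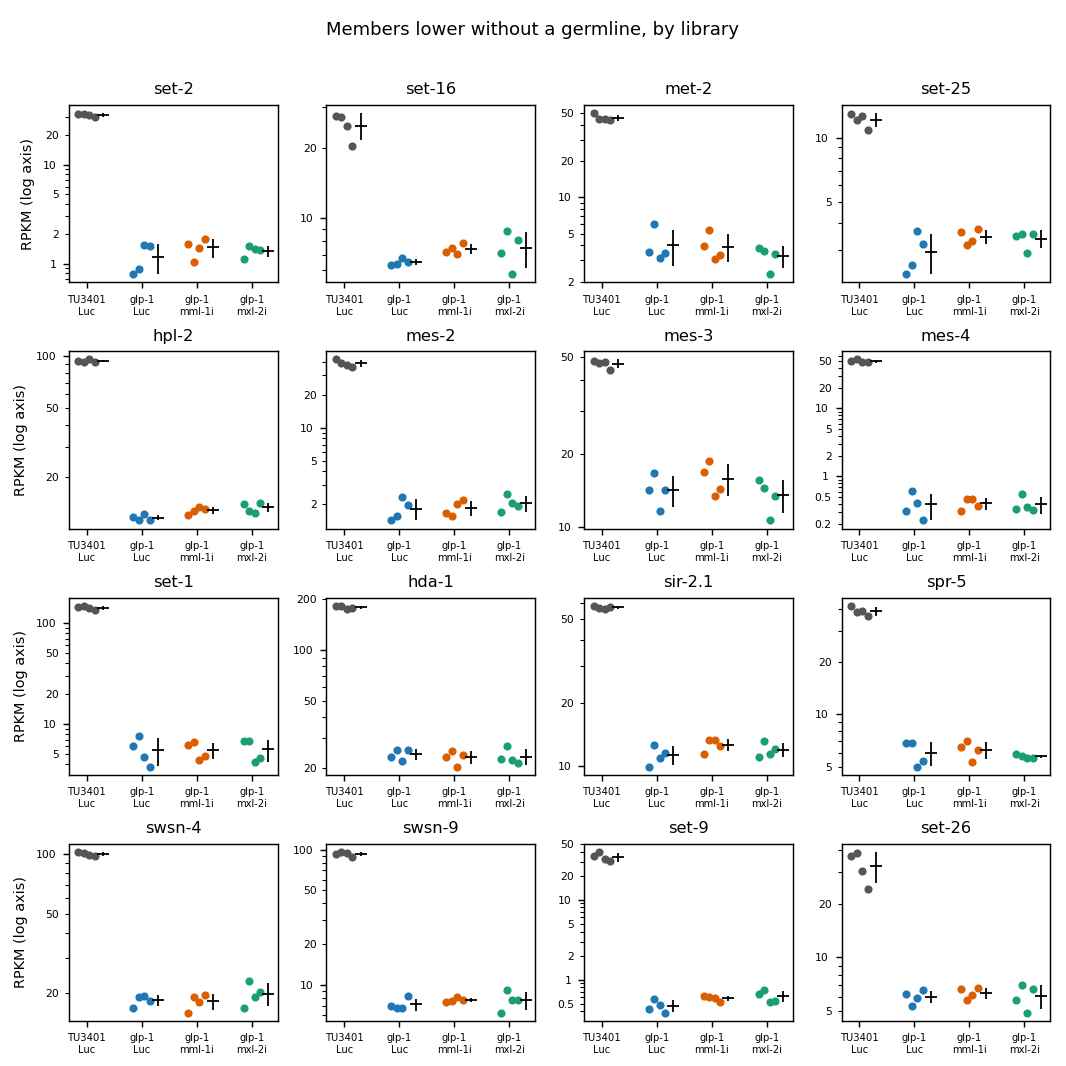
RPKM on a log axis in each of the 16 libraries for 16 members that were lower without a germline, with 1 point per library in replicate order and the mean ± SD beside each group. In every panel the 4 TU3401 points lie above all 12 points of the glp-1 groups, and the points of the 3 glp-1 groups lie close together.

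For H4K20, set-1 and set-4 place the first and the further methyl groups. set-1, which is essential, measured 143, 149, 140.0 and 135 RPKM in TU3401, the third highest mean of all members, and 6.12, 7.59, 4.69 and 3.78 in the glp-1 control. It thus kept 3.91% of its level (log2 fold change -4.48 ± 0.17, adjusted p = 8.33e-09 by limma). The antisense locus anr-1 overlaps the exons of set-1 over 443 bases, and the sources used here do not say whether counting used the strand. The recovered length of set-1 was its coding length, 729 of 1322 exon bases, so the overlap may lie outside the counted bases. set-4, whose product acts in dosage compensation of the X chromosome, kept 11.7%.

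All 7 SWI/SNF members were lower, where 46.1% of all genes tested were lower. They kept between 7.05% (swsn-2.2) and 18.5% (swsn-4) of their TU3401 levels. swsn-4, the ATPase that drives the complex, fell from 102, 101, 98.9 and 97.1 RPKM to 17, 19.2, 19.4 and 18.4. The control libraries differed little among themselves (log2 fold change -2.37 ± 0.06, adjusted p = 1.10e-09 by limma). swsn-9, a bromodomain subunit of the form of the complex that also holds SWSN-7, fell further, from 92.9 ± 3.36 to 7.18 ± 0.728 RPKM. Against swsn-4 in the same library it went from 0.906 to 0.959 down to 0.350 to 0.450 (exact permutation p = 0.0286, adjusted over the 12 ratios 0.0381). This pair was picked after its values were seen. The core subunit swsn-1 stood to swsn-4 at ratios of 0.982 to 1.12 in TU3401 and 0.901 to 1.07 in the glp-1 control (exact permutation p = 0.257, mean log2 difference -0.10). These ranges overlap, which does not show that the ratio was unchanged. swsn-7, the ARID-type subunit, kept 8.61%, much like swsn-9.

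The spr genes were found as suppressors of presenilin loss, and all 5 were lower, against 46.1% of all genes tested. spr-5, the worm's LSD1-type H3K4 demethylase, fell from 41.8, 38.3, 39.1 and 36.3 RPKM to 6.84, 6.85, 5.02 and 5.40. The groups stood clear of each other (log2 fold change -2.51 ± 0.11, adjusted p = 2.21e-08 by limma). spr-1, its CoREST partner, fell as well: spr-1 over spr-5 was 0.879 to 1.14 in TU3401 and 0.569 to 1.14 in the glp-1 control (exact permutation p = 0.514, mean log2 difference -0.22). A high p from so few libraries does not show that this ratio was unchanged. spr-2, a relative of the histone chaperone SET, was the most abundant member per length in TU3401 at 191 ± 11.1 RPKM and kept 6.99%. The zinc-finger genes spr-3 and spr-4 fell least, keeping 37.6% and 33.7%.

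Among the deacetylases the class I genes fell and some class II and IV genes did not. hda-1, an essential class I enzyme of the NuRD and other repressor complexes, measured 183, 181, 175 and 176 RPKM in TU3401 and 23.2, 25.6, 21.9 and 25.4 in the glp-1 control. It remained the fourth most abundant member per length in the control (log2 fold change -2.84 ± 0.07, adjusted p = 5.65e-10 by limma). The other class I genes hda-2 and hda-3 kept 10.1% and 9.51%, and hda-6 and hda-10 kept 12.9% and 23%. The ratio of hda-1 to hda-3 rose from 2.47 to 2.66 in TU3401 to 3.18 to 3.86 in the glp-1 control (exact permutation p = 0.0286, adjusted over the 12 ratios 0.0381). This pair was picked after its values were seen.

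hda-5 was the member whose RPKM rose most. As a share of the library, a higher RPKM is not by itself more RNA per worm, here and for the other members that rose. It measured 6.75, 10.6, 11.3 and 8.90 RPKM in TU3401 and 27.2, 33.1, 39.3 and 41.2 in the glp-1 control. Every control library was more than double any TU3401 library (log2 fold change 1.81 ± 0.18, adjusted p = 8.10e-06 by limma). hda-11, the worm's class IV deacetylase, rose from 1.11, 1.92, 2.12 and 1.55 RPKM to 3.55, 4.19, 4.12 and 5.48. Its groups did not overlap, at a low level (log2 fold change 1.00 ± 0.16, adjusted p = 0.000270 by limma). hda-4, the class IIa enzyme that works with MEF-2 in neurons and muscle, gave 14.9, 12.8, 14 and 12 RPKM in TU3401 and 15.5, 17.2, 12.7 and 13.4 in the glp-1 control. These values overlap (log2 fold change 0.12 ± 0.11, adjusted p = 0.351 by limma), and only quantile scaling made the gene higher (0.89, adjusted p = 6.34e-05; range over the alternatives up to 0.730).

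Of the 4 sirtuins, 3 were lower and sir-2.2 was higher, where 46.1% of all genes tested were lower and 41.5% higher. sir-2.1, the SIRT1 relative, fell from 58.1, 56.3, 56.1 and 57.2 RPKM to 9.91, 12.6, 10.9 and 11.5. The TU3401 values had the smallest coefficient of variation of any member, 1.62% (log2 fold change -2.25 ± 0.08, adjusted p = 5.96e-09 by limma). sir-2.4, of the SIRT6 type, kept 18.6%. sir-2.2, of the mitochondrial SIRT4 type, rose from 21.1, 21.1, 23.4 and 17.5 RPKM to 56.4, 67.5, 53.8 and 62. No control library came near TU3401 (log2 fold change 1.49 ± 0.11, adjusted p = 8.49e-07 by limma), and in the glp-1 control sir-2.2 was the most abundant member per length. Its paralog sir-2.3 starts 422 bases beyond its end on the same strand of chromosome X (sir-2.2 at X:13328067-13331263, sir-2.3 at X:13331686-13333846), and went the other way. sir-2.3 had 3.51, 6, 5.18 and 3.51 RPKM in TU3401 and 1.79, 1.84, 1.17 and 0.850 in the glp-1 control, so its groups did not overlap (log2 fold change -1.2 ± 0.20, adjusted p = 0.000388 by limma). The ratio of sir-2.2 to sir-2.3 rose from 3.52 to 6.01 in TU3401 to 31.4 to 72.9 (exact permutation p = 0.0286, adjusted over the 12 ratios 0.0381). That of sir-2.2 to sir-2.1 rose from 0.306 to 0.417 to 4.95 to 5.69, with the same p. Both pairs were picked after their values were seen.

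The acetyltransferases also went both ways. cbp-1, the worm's p300/CBP, fell from 57.4, 52.6, 50.5 and 45.4 RPKM to 17.1, 19.4, 15.3 and 14.5. It kept 32.2%, more than most members (log2 fold change -1.58 ± 0.11, adjusted p = 6.11e-07 by limma). cbp-2, a short paralog with a coding length of 969 bases against 6054 for cbp-1, measured 25.9, 24.8, 23 and 17.6 RPKM in TU3401 and 27.8, 72.8, 44.5 and 52 in the glp-1 control. Its control libraries were widely spread, and the lowest lay just above TU3401 (log2 fold change 1.01 ± 0.26, adjusted p = 0.00560 by limma). cbp-2 overlaps a further paralog, cbp-3, on the same strand over 173 bases, so its reads may belong in part to relatives, and its value is uncertain for that reason.

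Among the other SET-domain genes, 17 of the 18 tested were lower, against 46.1% of all genes tested. Of the 18, 6 passed the filter through TU3401 alone, and of the 12 left 11 were lower, against 43% of genes with 1 RPKM in both groups. The extreme was set-22, with 46.5, 51.5, 50.1 and 49.4 RPKM in TU3401 and 0, 0.0416, 0.0409 and 0 in the glp-1 control. That is 4621 reads against 2, a ratio of 2439 (95% counting interval 674.9 to 20149). Here too the filter set the direction, and the interval covers only counting error and is no test. The 8 libraries of the mml-1 and mxl-2 groups held no read of set-22, so that it was at least 1540-fold and at least 1515-fold lower there than in TU3401, against a floor of 3 reads over each group. set-24 fell from 18.9, 18.7, 17.3 and 16.6 RPKM to 0.198, 0.329, 0.130 and 0.0704. set-30, on chromosome X, was the only one of these 18 that rose, from 6.28, 6.32, 7.95 and 7.99 RPKM to 11, 15.9, 15.9 and 18.8. Its groups did not overlap (log2 fold change 1.00 ± 0.16, adjusted p = 0.000269 by limma). Levels of set-8 (3 reads over the TU3401 group, 1 over the control), set-11 (22 and 33) and set-33 (142 and 28) were too low for the filter.

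**Figure D3:**
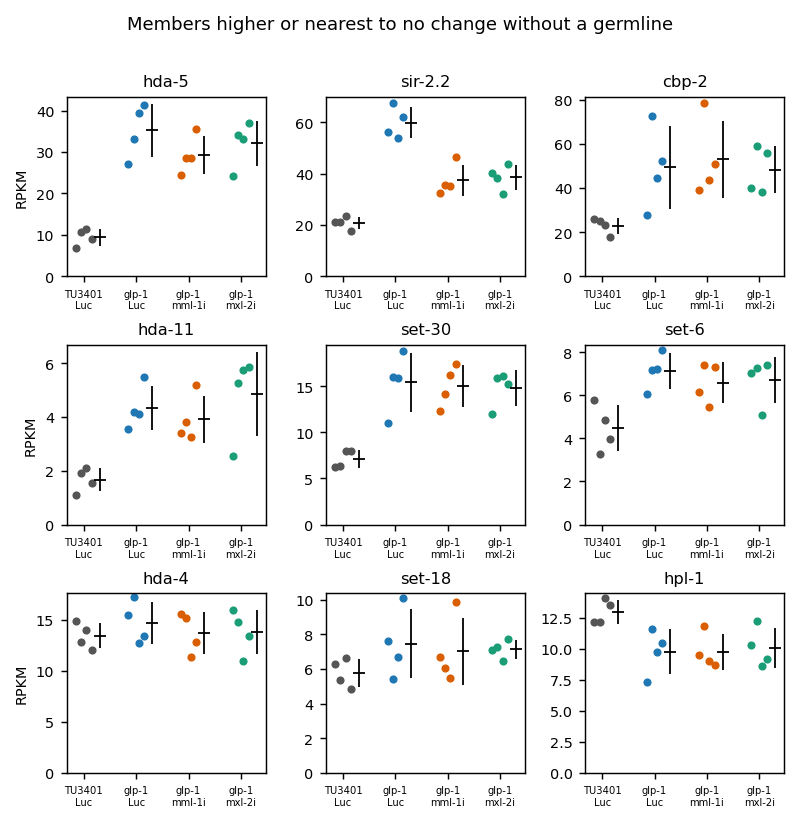
RPKM in each library for the 6 members that were higher in the glp-1 control than in TU3401 (hda-5, sir-2.2, cbp-2, hda-11, set-30 and set-6) and the 3 nearest to no change, with 1 point per library and the mean ± SD beside each group. The panel of sir-2.2 shows 53.8 to 67.5 RPKM in the control, and 32.2 to 46.4 in the mml-1-labelled and mxl-2-labelled libraries.

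**Figure D4:**
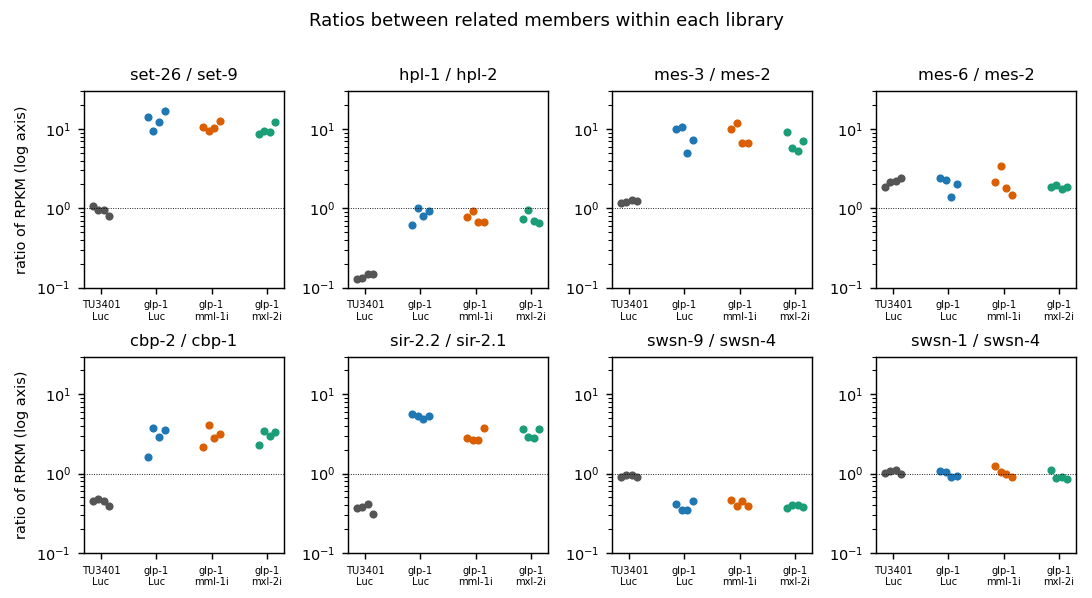
Ratio of RPKM between related members within each library, on a log axis shared by all panels, with 1 point per library and a dotted line at equal levels. The TU3401 points stand apart from the glp-1 points for 6 of the 8 ratios drawn, and overlap them for mes-6 over mes-2 and swsn-1 over swsn-4.

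The members' order of abundance was thus rearranged. In TU3401 the highest means per length were those of spr-2 (191 ± 11.1 RPKM), hda-1 (179 ± 3.90) and set-1 (142 ± 5.82), and the libraries of spr-2 and hda-1 overlap. In the glp-1 control they were those of sir-2.2 (59.9 ± 6.11), cbp-2 (49.3 ± 18.7) and hda-5 (35.2 ± 6.38), where the libraries of cbp-2 overlap those of both sir-2.2 and hda-5. Over all 67 members the median share of the TU3401 level that remained was 17.1%.

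Members on the X chromosome had a smaller median fall than those on autosomes. Of the 12 X-linked members tested, 8 were lower, 3 higher (sir-2.2, set-30 and set-6) and 1 not called, with a median log2 fold change of -0.92. Of the 52 members tested on autosomes, 48 were lower and 3 higher, with a median of -2.82. These counts and medians include the 9 members let in through TU3401 alone, which had to be lower. Of these, set-28 lies on X and the others on autosomes, so the contrast is in part built in by the filter. The same lean was seen over all genes tested: on X 63.9% of 1810 were higher and 21.4% lower (median log2 fold change 0.78), and on autosomes 38.4% of 10213 were higher and 49.3% lower (median -0.30). The difference between the chromosomes was not tested.

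The tested chromatin genes with other names went the same way. A list of 82 such names held 77 loci in the tables, of which 73 were tested, 71 were lower and none was higher, with a median log2 fold change of -2.60. Over all genes tested, 46.1% were lower and 41.5% higher. Of these 73, 5 passed the filter through TU3401 alone, wdr-5.3 among them, and had to be lower. The furthest down were wdr-5.3, a WDR5 relative (78.0 ± 7.25 to 0.231 ± 0.112 RPKM), htz-1, the histone variant H2A.Z (1157 ± 45.7 to 35.6 ± 2.66, log2 fold change -4.99), and hat-1, a histone acetyltransferase (168 ± 7.82 to 4.77 ± 0.679, -4.88; adjusted p = 2.87e-11 and 1.32e-10 by limma). At the other end, jmjd-3.3, an H3K27 demethylase relative, had a log2 fold change of 0.37 (adjusted p = 0.222 by limma) and wdr-5.2 of -0.07 (adjusted p = 0.625). chd-3, a Mi-2 type remodeller, fell by 0.59 on the log2 scale (adjusted p = 0.00276).

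Markers of cell types moved with these differences. All 20 germline and oocyte markers were lower, 14 of which passed the filter through TU3401 alone. Their summed level went from 10697 to 11167 RPKM in the TU3401 libraries to 24 to 34.2 in the glp-1 control, where 2 of them, pgl-3 and htp-3, were at 0 in all 4 libraries. Sperm markers summed to 1.28 to 5 RPKM in TU3401 and 6.88 to 10.8 in the glp-1 control. Most of that sum was msp-31, at a mean of 1.89 and 6.74 RPKM, and it was the only 1 of the 8 sperm markers above the filter. Means of spe-9 (0.261 to 0.0113 RPKM), gsp-3 (0.190 to 0.0551) and gsp-4 (0.274 to 0.185) lay the other way. Of the markers of body tissues, 8 of 10 for neurons, 5 of 6 for muscle, 4 of 6 for the intestine and 4 of 5 for the somatic gonad were higher, with median log2 fold changes of 1.01, 1.81, 0.96 and 0.89, while 1 muscle and 1 somatic gonad marker were lower. Of 6 hypodermis markers 3 were tested, 1 of them higher and 1 lower. The lower somatic gonad marker, lag-2, passed the filter through TU3401 alone. So did 2 of the hypodermis markers, dpy-7, which was the lower one, and dpy-13, which was not called. For these genes the direction was set by the filter. The part of cell type make-up in the members' differences was not tested. A day 1 adult with a germline usually holds oocytes and embryos too, and their RNA cannot be told apart from that of the germline here.

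In the main test no chromatin modifier passed the threshold in the mml-1-labelled or the mxl-2-labelled libraries. sir-2.2 passed it in both with voom weights and the replicate block, and for mml-1 also in a fit of all 16 libraries (adjusted p = 0.0321 by limma) and without replicate 4 of the mml-1-labelled libraries (0.0396). In the mml-1-labelled libraries against the glp-1 control, 0 of 55 members tested were called, and 3 had an unadjusted p under 0.05 (limma), where 7.82% of all 12591 genes tested had one. Of those genes 2 were called, or 0.0159%, and 60, or 0.477%, with the replicate number as a block. In the mxl-2-labelled libraries, 0 of 55 members were called and 4 had an unadjusted p under 0.05, where 6.54% of all 12581 genes tested had one. Of those genes 13 were called, or 0.103%, and 24, or 0.191%, with the block. The members' counts of low p values are near these shares. Between mxl-2 and mml-1 RNAi, 0 of 54 members were called against 0% of 12540 genes, and 0 had an unadjusted p under 0.05, against 0.885%. In the authors' deposited tables no member had a false discovery rate under 0.05 in the mml-1 or the mxl-2 comparison, against 0.209% and 0.183% of all 42048 loci, many of them at 0. There 3 members had an unadjusted p under 0.05 in each, against 2.51% and 2.43% of loci. In the authors' deposited table of the glp-1 control against TU3401, 63 of the 67 had a false discovery rate under 0.05, against 33.1% of loci, and 7 of the 67 were higher at that rate, against 16.7% of loci.

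The members' summed level was 525 ± 39.9 RPKM in the mml-1-labelled and 529 ± 50.1 in the mxl-2-labelled libraries, within the spread of the control's 545 ± 45.2. The median log2 fold change of the members was 0.02 and 0.04 in the 2 comparisons. Libraries did not overlap with the control for 3 members under mml-1 RNAi and 5 under mxl-2 RNAi, or 5.45% and 9.09% of those tested, where 4.75% and 4.12% of all genes did the same. Both groups were set against the same 4 control libraries, so their likeness is in part built in.

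The lowest p in both comparisons belonged to sir-2.2. It measured 32.3, 35.6, 35.1 and 46.4 RPKM in the mml-1-labelled libraries and 40.2, 38.2, 32.2 and 43.9 in the mxl-2-labelled ones, against 56.4, 67.5, 53.8 and 62 in the control and 17.5 to 23.4 in TU3401. All 8 of these libraries lay between TU3401 and the control, without overlap with either. The log2 fold change was -0.68 ± 0.13 under mml-1 RNAi (adjusted p = 0.188 by limma) and -0.62 ± 0.12 under mxl-2 RNAi (adjusted p = 0.172 by limma), so neither passed the threshold. With limma's voom weights on the recovered reads and the replicate number as a block, both did, at adjusted p = 0.00764 and 0.0160. Over the alternatives the adjusted p of sir-2.2 ran from 0.00764 to 0.514 under mml-1 RNAi and from 0.0160 to 0.498 under mxl-2 RNAi. In the authors' deposited table its log2 fold changes were -0.68 and -0.63, with false discovery rates of 0.173 and 0.233.

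**Figure D5:**
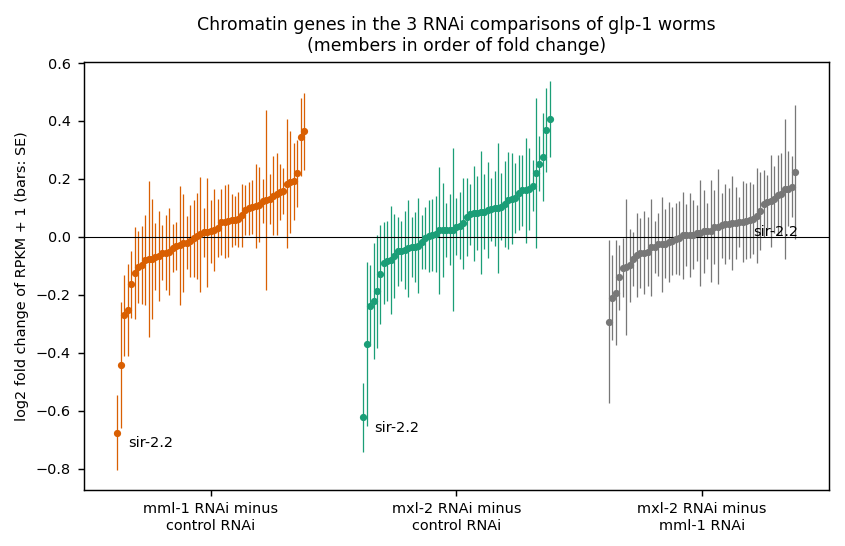
Log2 fold change of RPKM + 1 (points, with the standard error as bars) of the members tested in the 3 RNAi comparisons among glp-1 worms, each ordered by its own fold change. sir-2.2 is the lowest point under both mml-1 RNAi (-0.68) and mxl-2 RNAi (-0.62), and 36 of 55, 42 of 55 and 43 of 54 points lie within 1 standard error of 0 in the 3 comparisons.

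The other members with the lowest p did not pass the threshold. set-12, a SET-domain gene on X, measured 2.04, 1.45, 1.74 and 2.24 RPKM in the mml-1-labelled libraries against 1.16, 1.43, 1.19 and 1.1 in the control (log2 fold change 0.36 ± 0.13, adjusted p = 0.532 by limma). The mxl-2-labelled libraries held 1.51 to 2.35 RPKM of set-12 (log2 fold change 0.37 ± 0.14, adjusted p = 0.685 by limma). All 8 values lay above the control, at a level where adding 1 to the RPKM shrinks the fold change. In the authors' deposited tables the log2 fold change of set-12 was 0.61 in both comparisons, with a false discovery rate of 1 in each. set-23 had log2 fold changes of 0.35 ± 0.13 and 0.41 ± 0.13 in the mml-1 and mxl-2 comparisons (adjusted p = 0.578 and 0.528 by limma). set-29 measured 5.89, 6.46, 6.65 and 6.03 RPKM under mxl-2 RNAi against 4.75, 5.05, 5.15 and 5.42, which did not overlap (log2 fold change 0.25 ± 0.09, adjusted p = 0.655 by limma). Between the mml-1-labelled and mxl-2-labelled libraries the lowest p values belonged to set-15 (log2 fold change 0.17 ± 0.10), mes-3 (-0.21 ± 0.15) and set-29 (0.12 ± 0.09), each with a limma adjusted p of 1.000. The log2 fold changes of the 55 members under mml-1 RNAi ran from -0.68 to 0.36, and those under mxl-2 RNAi from -0.62 to 0.41.

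The spread between replicates was smaller in TU3401 than in glp-1 worms. Among members with a mean of at least 1 RPKM in the group, the median coefficient of variation was 6.53% in TU3401 (64 members), 14.1% in the glp-1 control (55), 13.1% in the mml-1-labelled (54) and 14.8% in the mxl-2-labelled libraries (55). Over all genes at that level it was 10.6%, 16.4%, 16.4% and 17.5%. Most members held fewer reads in glp-1 worms, where counting error is larger, and the members counted differ. The spreads are therefore not compared at like levels, and the part of counting error was not tested. The most variable members were sir-2.3 in TU3401 (27.5%), set-20 in the glp-1 control (45.4%) and spr-3 in the mml-1-labelled and mxl-2-labelled libraries (37.8% and 44.8%).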

How the data were processed

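The authors deposited 3 tables of RPKM per gene and library, each with 2 groups side by side. Per the file headers, the authors added their own test of each gene as a log2 ratio, a p-value, a false discovery rate and a rank score, the last not used here. The submitters' processing notes name bcl2fastq, TopHat2 2.1.1 and GRCh38, a human build, so the worm build, the counter and the use of strand are not given in the sources used here. Columns of the shared control group were the same in all tables (largest difference 0). Whole reads (tolerance 0.001) could be recovered for 100% of the 25332 loci above 0, with gene lengths that match coding length (59 of 66 annotated members). Coordinates are those of Ensembl release 115 for WBcel235, which lists 66 of the 67 members and not set-33. Strand was not stated, so overlapping and antisense genes cannot be told apart. Overlaps are given between whole exons, and where the length matched the coding length some or all of those bases may not have been counted.

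The main test was 2-sided limma 3.58.1 in R 4.3.3, with a variance trend and robust moderation, on log2(RPKM + 1) of genes with a mean of at least 1 RPKM over the 8 libraries of a comparison, with Benjamini-Hochberg adjustment over all genes tested and a threshold of 0.05. The fit was tested on simulated data. Ratios were tested by exact permutation on the log2 scale, where 4 libraries against 4 cannot go below 0.0286. Floors of 3 reads and 95% counting intervals cover counting error only. The replicate numbers in the titles were taken to pair the libraries, since deviations of same-numbered libraries from their group means correlated above 0.1 in every pair: at 0.120 to 0.265 for the glp-1 control with TU3401, 0.291 to 0.614 for mml-1 RNAi and 0.199 to 0.637 for mxl-2 RNAi with the control, and 0.217 to 0.676 between mxl-2 and mml-1 RNAi. The pairing of the glp-1 control with TU3401 is weak: there replicate 3 correlated at 0.127 with another number, and replicates 1 and 4 at up to 0.144 and 0.240, against 0.160 and 0.265 with their own. A fit with the number as a block was therefore run as well. Other alternatives were a pseudocount of 0.1, no filter, quantile and median-ratio scaling, all 16 libraries in 1 fit, limma's voom on recovered reads and leaving out each library; asking 1 RPKM of both groups was added after seeing the data.

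The members, lists and role groups were chosen with earlier results of these data known. Named genes were the members called higher, the 8 lowest called lower, the 3 nearest 0, a fixed set of hub genes, and the 3 lowest p values in each RNAi comparison; other members named in a role group, for overlaps, ratios or read counts were chosen after their values were seen.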

Additional observations from a re-analysis of the deposited data

Results flagged for a closer look

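In 5 of 118 groups of 4 libraries tested, 1 library stood far from the other 3 by Dixon's criterion, and chance alone flags about 1 group in 20. The glp-1 control replicate 2 held met-2 at 6.06 RPKM, with the others at 3.16 to 3.53. Replicate 2 of the mxl-2-labelled libraries held mes-4 at 0.559 RPKM, with the others at 0.324 to 0.351. Replicate 3 of that group was the low library for set-15 (2.87 RPKM against 3.13 to 3.15), for set-25 (2.91 against 3.51 to 3.59) and for set-6 (5.1 against 7.03 to 7.42). This replicate 3 is also the library with 733 RPKM of mxl-2; a link between the values was not tested.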

How the results depend on the processing

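Over the alternatives run, the glp-1 control against TU3401 gave 6 to 9 members higher and 47 to 57 lower, with the fewest lower when 1 RPKM was asked of both groups (47 of 55 tested). Under quantile scaling the median over all genes tested was 0.42 in place of -0.06 on the log2 scale, and over the members -1.8 in place of -2.49, with 54 members lower and 9 higher; hpl-1 turned to 0.31 there, and the cause was not tested. In the mml-1 comparison the count of members called lower went from 0 to 1 in a fit of all 16 libraries and to 1 with voom and the replicate block, and ran from 0 to 1 when single libraries were left out (1, sir-2.2, without mml-1 RNAi replicate 4, at an adjusted p of 0.0396). In the mxl-2 comparison it went from 0 to 1 with voom and the replicate block. The replicate block in the main test left 56 members lower and 6 higher, and 0 called in the mml-1 and mxl-2 comparisons; it changed no other call on a member. Over all genes, calls in the mml-1 comparison were 2 in the main test, 60 with the block, 39 in a fit of all 16 libraries, 467 with voom and the block, 53 without mml-1 RNAi replicate 4, and 0 when replicate 3 of the mml-1-labelled libraries, or replicate 1, 3 or 4 of the control, was left out. In the mxl-2 comparison they were 13, 24, 25 and 268 in the same order of tests, 2 with no filter, and 1 to 16 when single libraries were left out. Depth limits members such as set-8, set-11, set-13, set-21, set-22, set-24, set-28, set-32 and set-33, whose values in glp-1 worms rest on few reads.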
